A study of Mus musculus with 23 samples.

Results

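The 7 cyclin-dependent kinase (CDK) inhibitors of the mouse, Cdkn1a, Cdkn1b, Cdkn1c, Cdkn2a, Cdkn2b, Cdkn2c and Cdkn2d, were followed across the reproductive life of the mammary epithelium. They were 7 of 18193 genes named by at least 1 probe set that lists a single gene symbol, and 9 of the 45101 probe sets on the array carried 1 of these names. Cdkn1a and Cdkn1b had 2 probe sets each and the others 1. Expression was measured on 23 Affymetrix arrays of cells purified from the mammary gland. The donors were female mice of the inbred line C57BL/6, with no transgene, deletion or drug named in the labels.

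The labels give 3 cell types, mature luminal cells (8 arrays), luminal progenitors (7 arrays) and stem cells (8 arrays). The stages were virgins aged 3 or 9 weeks, pregnant mice at days 10, 16 and 19, and breeders that had been retired. The labels do not give the age of the pregnant mice or of the retired breeders. Retired breeders differ from 9-week virgins in parity and in age, which cannot be told apart. Pregnant mice may also differ from 9-week virgins in age, which cannot be told apart from pregnancy. Stage and cell type together gave 16 groups. There were 2 arrays in 7 of them, all 3 cell types of 9-week virgins, luminal progenitors and stem cells of 3-week virgins, and mature luminal and stem cells of day 10. The other 9 had 1 array, and day 19 was represented by mature luminal cells only. The labels do not say whether arrays of a group came from separate animals, so the p-values reflect variation among these samples alone, and that variation may be technical. In such bulk samples, fewer cells of a type and less RNA per cell cannot be told apart.

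A cell passes from its growth phase into DNA synthesis when CDKs bound to cyclins phosphorylate the retinoblastoma protein and release E2F transcription factors. The Cip/Kip inhibitors, p21 (Cdkn1a), p27 (Cdkn1b) and p57 (Cdkn1c), bind complexes of a cyclin and a CDK. The Ink4 inhibitors, p16 (Cdkn2a), p15 (Cdkn2b), p18 (Cdkn2c) and p19 (Cdkn2d), bind CDK4 and CDK6 and keep cyclin D away from them. In the mammary gland, pregnancy is a time of epithelial proliferation and of the growth of milk-producing alveoli. In the human breast, p27 is known from quiescent hormone-responsive epithelial cells.

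The arrays had medians of 4.51 to 5.47 on the deposited log2 scale. On 21 of them the 3′ control probe set of Gapdh lay 0.87 to 2.72 above the 5′ one, a gap that widens in degraded or short-copied RNA. It was 3.77 on the retired breeder stem cell array and 5.16 on the 3-week mature luminal array, and leaving out these 2 changed no count of member calls. The mean of 12 basal markers ran from 7.56 to 9.73 in mature luminal cells, from 7.72 to 10.96 in luminal progenitors and from 10.14 to 12.46 in stem cells. The mean of the 8 measured of 11 mature luminal markers did not separate the cell types, at 9.34 to 12.32, 9.65 to 12.21 and 9.37 to 11.4 in the same order. Nor did the mean of 6 luminal progenitor markers, at 7.57 to 9.72, 8.76 to 9.58 and 7.48 to 9.39 in that order. The mean of 8 endothelial markers reached 11.43 in stem cells, on a 3-week array, against at most 8.13 in mature luminal cells. Fibroblast markers averaged 7.84 to 11.28 in luminal progenitors and 4.44 to 8.58 in mature luminal cells. Itgam was listed at 0 on 2 arrays and Lep on 1, and no other measured marker gene was.

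All 9 probe sets passed the filter on low values, which asked for at least 2 arrays on which the value exceeded the 40th percentile. The p21 probe set 1424638_at ran from 8.2 to 12.42 over the 23 arrays, and the second one, 1421679_a_at, from 6.44 to 10.21. For p27, 1434045_at ran from 11.02 to 12.32 and 1419497_at from 5.04 to 8.99. The p57 probe set ran from 4.13 to 8.97. Among the Ink4 genes the ranges were 1.65 to 5.65 for Cdkn2a, 3.81 to 6.5 for Cdkn2b, 5.72 to 7.82 for Cdkn2c and 7.32 to 9.35 for Cdkn2d. Cdkn2a lay below the median of its array on 21 of 23 arrays and above the 40th percentile on 9, so its values were low on most arrays. Cdkn2b lay below the array median on 8 arrays and Cdkn1c on 3. Probe sets differ in how well they bind, so levels were compared within a probe set only.

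**Figure D1:**
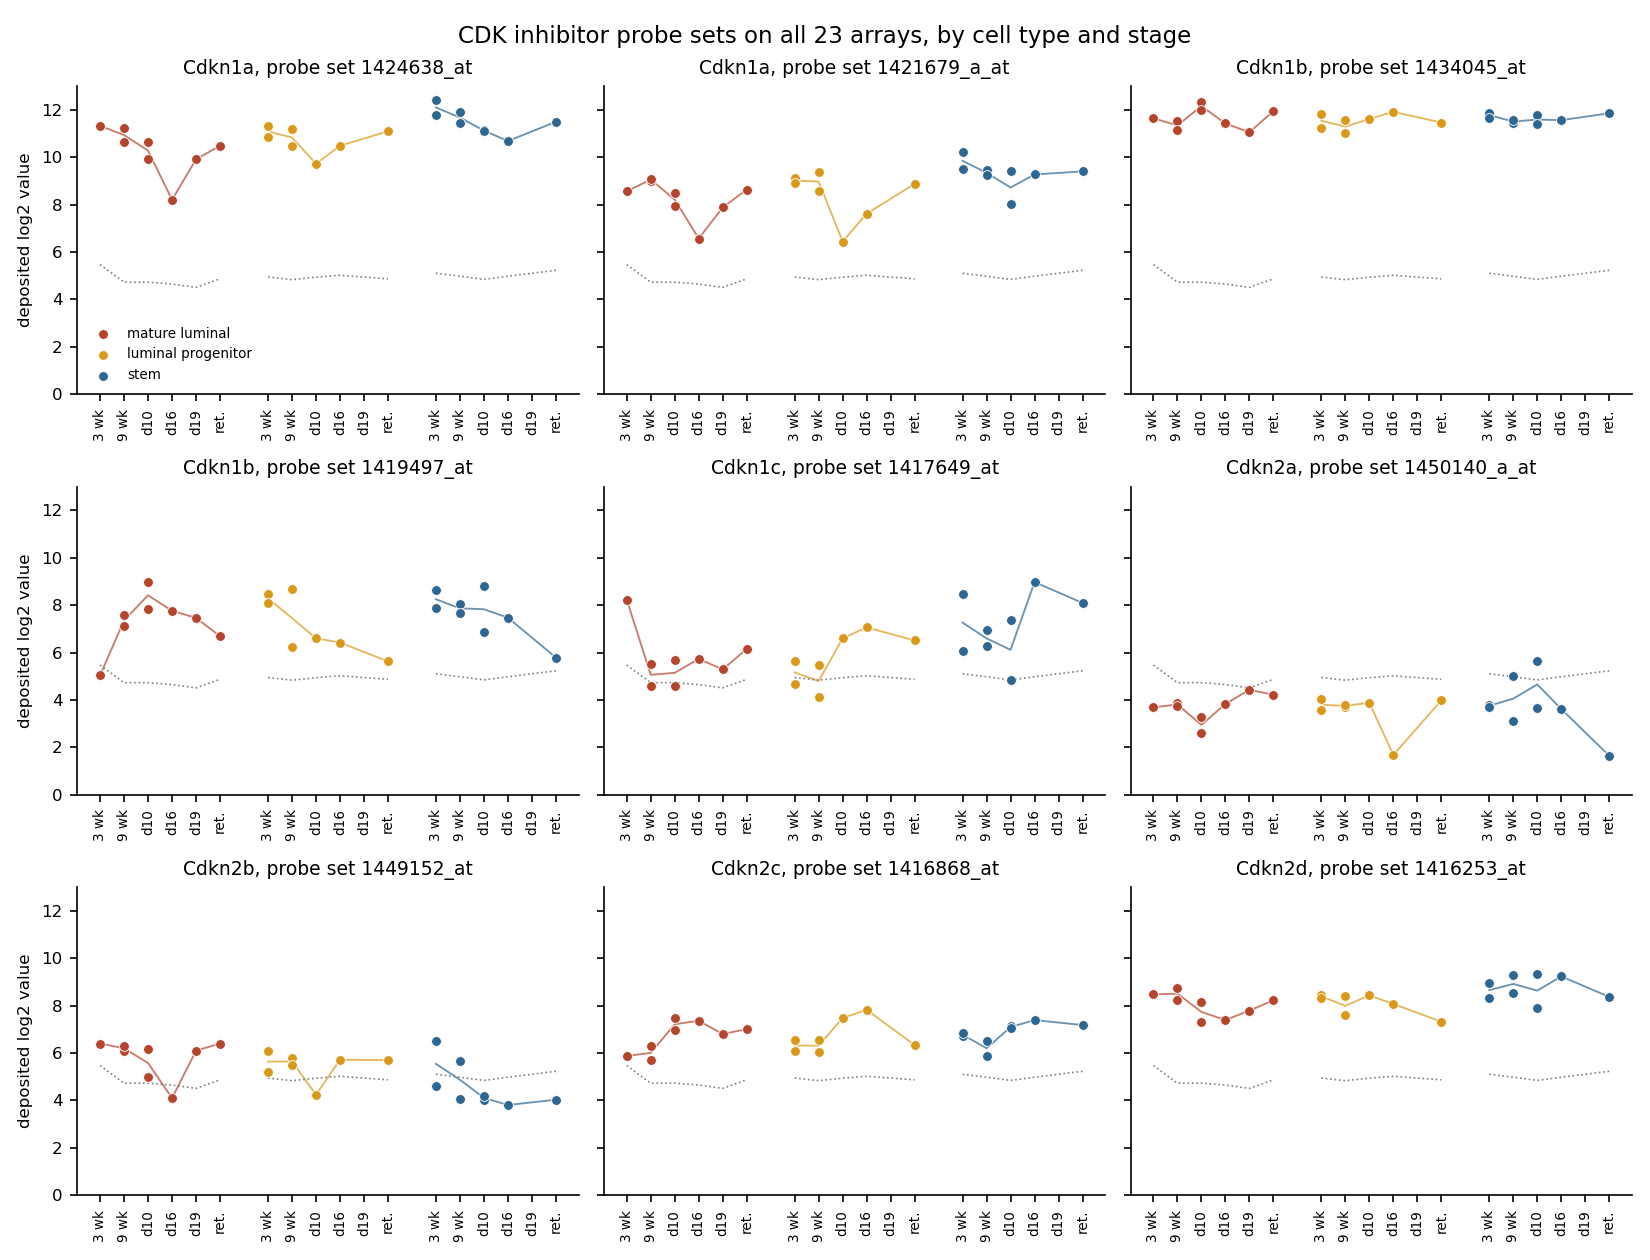
Deposited log2 values of the 9 probe sets on all 23 arrays. Each point is 1 array, placed by cell type and by stage (virgin, pregnant, retired). Coloured lines join group means and dotted lines the array medians. Cdkn1a group means at days 10 and 16 lie below those of 9-week virgins in each cell type, with 8.2 for 1424638_at in day-16 mature luminal cells. Cdkn2c is at 6.97 or above on all 8 arrays of days 10 and 16 and at 6.57 or below on all 6 of 9-week virgins.

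Cdkn1a, the p53 target p21 that stops cells after DNA damage and at differentiation, was lower in mature luminal cells than in stem cells and lower in pregnant than in 9-week virgin glands. Mature luminal cells averaged 10.24 and stem cells 11.41 over the 5 stages with both types, a log2 difference of -1.17 ± 0.23 (SE of the linear model here and below) or 2.25-fold lower. The pregnant groups of days 10 and 16 averaged 10.08 and the 9-week virgins 11.14 over the 3 cell types, a difference of -1.06 ± 0.23 or 2.09-fold lower. Both passed limma's test across all probe sets, with Benjamini-Hochberg adjusted p of 0.011 and 0.0256. The gene lies on chromosome 17, and RefSeq's promoter table holds 2 start sites for it in build GRCm38.p6. Their promoter windows are shown because Cdkn1a passed both comparisons. Each runs from 250 bases before to 50 bases after the start, 5′ to 3′ on the plus strand, at chr17:29090729-29091028 and chr17:29093519-29093818. Capitals mark matches, on either strand, to the GC box GGGCGG or to the TATA box TATAA.
Cdkn1a upstream start: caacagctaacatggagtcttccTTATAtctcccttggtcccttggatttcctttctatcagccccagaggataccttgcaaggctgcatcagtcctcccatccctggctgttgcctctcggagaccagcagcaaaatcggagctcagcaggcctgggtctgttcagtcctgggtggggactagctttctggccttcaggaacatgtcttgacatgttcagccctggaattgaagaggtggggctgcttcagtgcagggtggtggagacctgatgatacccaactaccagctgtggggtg
Cdkn1a downstream start: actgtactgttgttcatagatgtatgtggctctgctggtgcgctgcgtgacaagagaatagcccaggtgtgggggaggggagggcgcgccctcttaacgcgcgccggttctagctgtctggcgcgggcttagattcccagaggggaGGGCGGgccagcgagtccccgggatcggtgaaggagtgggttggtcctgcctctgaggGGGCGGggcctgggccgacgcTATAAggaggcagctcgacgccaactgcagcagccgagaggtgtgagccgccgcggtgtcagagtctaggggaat
The upstream window held 1 TATA box match, 227 bases before the start, and no GC box. The downstream window held 2 GC boxes, 104 and 46 bases before the start, and a TATA box match 25 bases before it. Of 32851 mouse promoter windows of the same length, 35.66% hold a GC box match and 24.87% a TATA box match. A match is a description of the letters and not a measured binding site.

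By array, 1424638_at gave the following picture. In mature luminal cells it had 11.32 in 3-week virgins, 11.21 and 10.65 in 9-week virgins, 10.64 and 9.91 at day 10, 8.2 at day 16, 9.91 at day 19 and 10.48 in retired breeders. Luminal progenitors had 11.3 and 10.87 in 3-week virgins, 11.2 and 10.46 in 9-week virgins, 9.72 at day 10, 10.48 at day 16 and 11.09 in retired breeders. Stem cells had 12.42 and 11.77 in 3-week virgins, 11.9 and 11.44 in 9-week virgins, 11.14 and 11.1 at day 10, 10.68 at day 16 and 11.49 in retired breeders. Every luminal array lay below both stem cell arrays of 3-week virgins, the highest group. Over all stages luminal and stem cell arrays overlapped, as day-16 stem cells had 10.68. The day-16 mature luminal array was the lowest of all. The share of all probe sets separated in this way was not counted. The order of the 16 groups ran from 3-week stem cells (12.10) and 9-week stem cells (11.67) to day-10 luminal progenitors (9.72) and day-16 mature luminal cells (8.2). Of the 15 steps between neighbours in that order, 2 exceeded the spread between arrays of a group (SD 0.412), and the step to the lowest group was 1.52.

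In the comparison of mature luminal with stem cells, Cdkn1a was lower at 5 of 5 stages, by between -0.74 and -2.48. It was the only member probe set of 9 to pass there, against 5.09% of the 35303 probe sets tested, with 4.3% of all tested being lower in mature luminal cells. The second probe set pointed the same way at 5 of 5 stages and did not pass (-1.11 ± 0.30, adjusted p = 0.0611). Luminal progenitors also lay below stem cells at 5 of 5 stages without passing, at -0.77 ± 0.23 (adjusted p = 0.108) and -1.13 ± 0.30 (adjusted p = 0.0833), in a comparison where 2.2% of probe sets passed. With the replicate number as a block (arrays titled replicate 1 against all others), both Cdkn1a probe sets passed in both comparisons, at adjusted p of 0.00141 and 0.0193 for mature luminal against stem cells and 0.0262 and 0.0232 for luminal progenitors. Under that block 13.2% of probe sets passed for mature luminal and 9.98% for luminal progenitor against stem cells. Within the arrays titled replicate 1 the difference of mature luminal from stem cells was -0.57 (adjusted p = 0.229), and within all other arrays -1.31 (adjusted p = 0.0214). A block over the 15 numbered arrays alone gave -0.79 (adjusted p = 0.0677) for mature luminal and -0.93 (adjusted p = 0.0291) for luminal progenitor against stem cells. It covers fewer stages, 9-week virgins and day 10 for mature luminal cells and 3- and 9-week virgins for luminal progenitors. Those titled replicate 1 likewise include no array of day 16 or of retired breeders, while all other arrays include both. Without the day-16 stem cell array or the day-16 mature luminal array the difference was -0.84, with adjusted p of 0.0992 and 0.0962. Against stem cells, 8 of 12 basal, 5 of 8 endothelial and 4 of 7 fibroblast markers were lower in mature luminal cells, and 8 of 12 basal and 3 of 8 endothelial markers in luminal progenitors. The fibroblast mean ran from 4.44 to 8.58 in mature luminal cells and from 7.22 to 9.46 in stem cells. The part of these markers in the Cdkn1a difference was not tested.

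**Figure D2:**
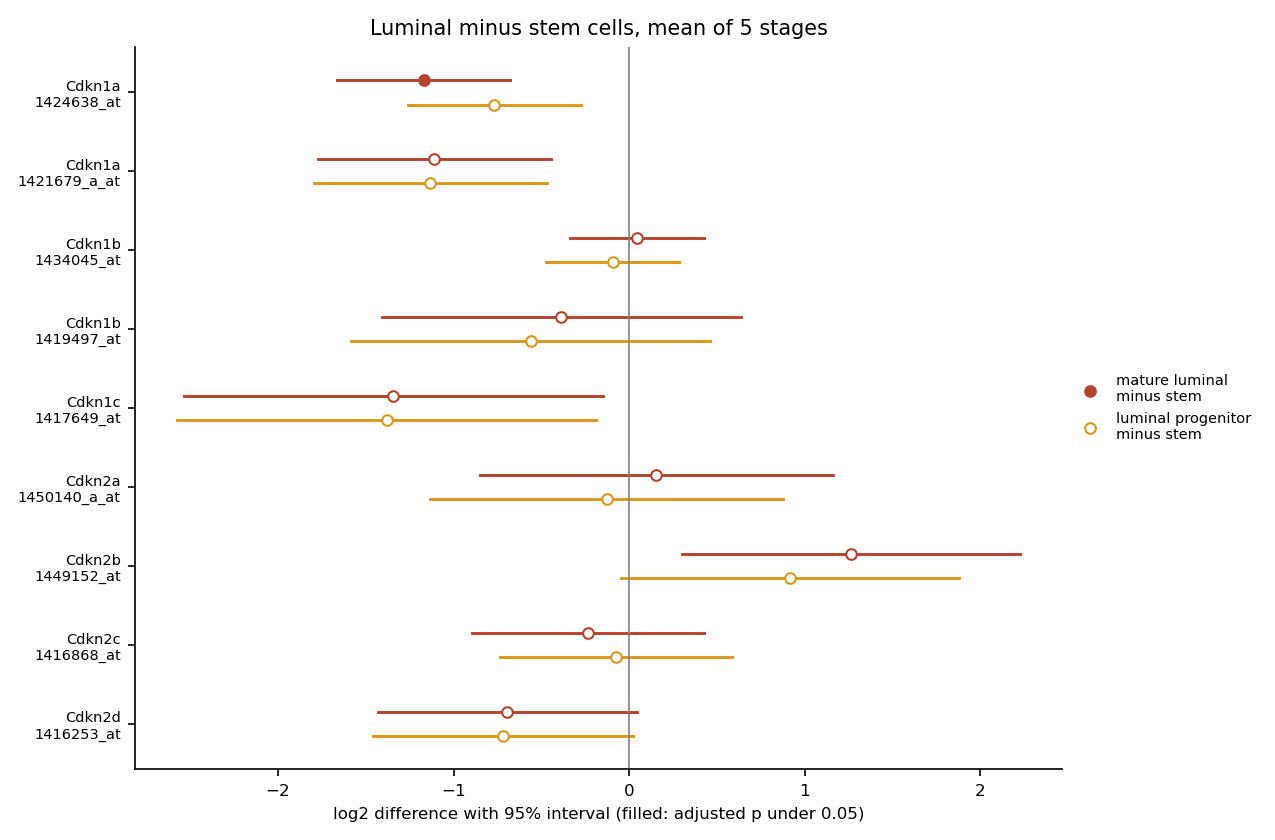
Log2 differences of mature luminal cells (red) and luminal progenitors (yellow) from stem cells for the 9 probe sets, averaged over 5 stages, with 95% intervals from limma. A filled point passed at an adjusted p under 0.05, and Cdkn1a 1424638_at at -1.17 is the only one. The other Cdkn1a intervals and those of Cdkn1c lie below 0 and the Cdkn2b interval above 0 in mature luminal cells, without passing the adjusted threshold.

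During pregnancy, both Cdkn1a probe sets and Cdkn2c passed the test across the 3 cell types, 3 of 9 member probe sets against 3.9% of all probe sets. By direction, 2 of the 9 were lower, against 2.05% of all, and 1 was higher, against 1.85% of all. Cdkn1a 1424638_at was lower in 3 of 3 cell types, by -1.69 in mature luminal cells, -0.73 in luminal progenitors and -0.77 in stem cells. The pregnant arrays ran from 8.2 to 11.14 with a median of 10.56, and the 9-week arrays from 10.46 to 11.9 with a median of 11.21, so the groups overlapped when cell types were pooled. Within mature luminal cells all 3 pregnant arrays of days 10 and 16 lay below both 9-week arrays, narrowly, with 10.64 against 10.65 the closest. Within stem cells they did so as well, at 10.68 to 11.14 against 11.44 and 11.9. In luminal progenitors the arrays overlapped, at 9.72 and 10.48 against 10.46 and 11.2. The share of all probe sets separated in this way within a cell type was not counted.

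The second Cdkn1a probe set was also lower in 3 of 3 cell types. In mature luminal cells 1421679_a_at had 8.47 and 7.95 at day 10 and 6.57 at day 16, against 9.01 and 9.1 in 9-week virgins. In luminal progenitors it had 6.44 at day 10 and 7.62 at day 16, against 9.38 and 8.56 in 9-week virgins. In stem cells it had 8.04 and 9.4 at day 10 and 9.27 at day 16, against 9.44 and 9.24 in 9-week virgins. On this probe set the pregnant arrays lay below the 9-week arrays in both luminal types and overlapped them in stem cells. On 1424638_at, by contrast, stem cells were separated and luminal progenitors overlapped. The share of all probe sets separated in this way within a cell type was not counted. The averaged difference was -1.32 ± 0.31 (adjusted p = 0.0361), 2.49-fold lower. A test of whether the change was larger in luminal than in stem cells did not pass for either probe set, with differences of -0.92 and -1.32 for mature luminal and 0.04 and -1.59 for luminal progenitors (adjusted p = 1 for all). In those interaction tests 0.00283% of probe sets passed for mature luminal and 0% for luminal progenitors, where 1316 had an unadjusted p under 0.05.

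Both Cdkn1a calls depended on which arrays were kept. With the replicate 1 block they stayed, at -0.95 (adjusted p = 0.00953) and -1.34 (adjusted p = 0.0134). The share of all probe sets passing under that block in this comparison is not given here. The 15 numbered arrays and those titled replicate 1 leave day 10 against 9 weeks, with pregnant mature luminal and stem cells only. All other arrays include day 16. Over the 15 numbered arrays the Cdkn1a differences were -0.60 (adjusted p = 0.216) and -0.73 (adjusted p = 0.327). Within the arrays titled replicate 1 they were -0.64 and -1.04, and within all other arrays -0.84 and -1.09, with none passing. The 1424638_at call was lost without the day-16 mature luminal array (-0.72, adjusted p = 0.151), the day-10 luminal progenitor array (-0.94, adjusted p = 0.0848), the 9-week luminal progenitor replicate 1 (-0.94, adjusted p = 0.0891) or the 9-week mature luminal replicate 1 (-0.97, adjusted p = 0.0856). The 1421679_a_at call was lost on leaving out any of 10 arrays, with values between -1.35 and -1.04 and adjusted p between 0.0534 and 0.127. These were all 9-week arrays except luminal progenitor replicate 2, both 3-week luminal progenitor arrays, the day-10 luminal progenitor array, day-10 mature luminal replicate 2 and the day-16 mature luminal array.

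Tested inside 1 cell type, no member passed. The lowest adjusted p was that of Cdkn1a 1424638_at in mature luminal cells, at -1.69 ± 0.39 (adjusted p = 0.0668), in a comparison where 1.08% of probe sets passed. With the replicate 1 block it passed there (-1.61, adjusted p = 0.0129). The share of all probe sets passing under that block is not given here. In the fit without a block, 0.0453% of probe sets passed in luminal progenitors and 0.0765% in stem cells. Day 16 was set against day 10 over the 3 cell types, and 0% of probe sets passed, with 426 at an unadjusted p under 0.05. Cdkn1a differed by -0.58 ± 0.31 there on 1424638_at and by 0.03 ± 0.41 on 1421679_a_at (adjusted p = 1 for both).

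Cdkn2c, the CDK4 and CDK6 inhibitor p18, was higher in pregnancy, by 1.22 ± 0.31 or 2.33-fold, averaged over the cell types (limma adjusted p = 0.0481). In mature luminal cells it had 6.97 and 7.46 at day 10 and 7.36 at day 16, against 5.72 and 6.29 in 9-week virgins. In luminal progenitors it had 7.48 at day 10 and 7.82 at day 16, against 6.05 and 6.57 in 9-week virgins. In stem cells it had 7.15 and 7.04 at day 10 and 7.39 at day 16, against 5.88 and 6.52 in 9-week virgins. The differences were 1.28, 1.34 and 1.04 in the 3 cell types, and every pregnant array (6.97 to 7.82, n = 8) lay above every 9-week array (5.72 to 6.57, n = 6). Of all probe sets, 0.467% were separated that way and 0.646% the opposite way. At the other stages it had 6.8 at day 19 in mature luminal cells, 5.88 to 6.84 over the 5 arrays of 3-week virgins and 7.01, 6.34 and 7.18 in mature luminal cells, luminal progenitors and stem cells of retired breeders.

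The adjusted p of Cdkn2c lay just under the threshold, and 17 of the 23 runs that left out 1 array lost the call, with values of 1.12 to 1.32 and adjusted p of 0.0599 to 0.154. The 6 arrays whose removal kept it were the 3 of retired breeders, the 3-week and day-19 mature luminal arrays and 9-week stem cell replicate 2. With the replicate 1 block the difference was 1.10 (adjusted p = 0.0216), and over the 15 numbered arrays it was 1.05 (adjusted p = 0.119). Within the arrays titled replicate 1 it was 1.16 (adjusted p = 0.409) and within all other arrays 0.97 (adjusted p = 0.131). Day 10 was the only pregnant stage compared in the numbered arrays and in those titled replicate 1, while all other arrays include day 16. The share of all probe sets passing with the replicate 1 block is not given here. Cdkn2c did not pass with low values raised to each array's median (adjusted p = 0.0757) or with no filter (adjusted p = 0.0658).

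The same table holds 2 start sites for Cdkn2c on the minus strand of chromosome 4, at windows chr4:109666707-109667006 and chr4:109665323-109665622 in GRCm38.p6. They are shown as the counterpart of the Cdkn1a windows, since Cdkn2c differed the opposite way in the same comparison. Each is written 5′ to 3′ on the minus strand, and capitals mark matches on either strand to the GC box, to the CCAAT box, spelled CCAAT, or to the E-box, spelled CACGTG.
Cdkn2c upstream start: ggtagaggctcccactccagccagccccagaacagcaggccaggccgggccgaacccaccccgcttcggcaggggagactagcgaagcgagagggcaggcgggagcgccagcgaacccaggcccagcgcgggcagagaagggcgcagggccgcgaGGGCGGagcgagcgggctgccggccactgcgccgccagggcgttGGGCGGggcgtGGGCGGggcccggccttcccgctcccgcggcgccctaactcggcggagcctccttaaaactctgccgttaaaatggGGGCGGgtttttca
Cdkn2c downstream start: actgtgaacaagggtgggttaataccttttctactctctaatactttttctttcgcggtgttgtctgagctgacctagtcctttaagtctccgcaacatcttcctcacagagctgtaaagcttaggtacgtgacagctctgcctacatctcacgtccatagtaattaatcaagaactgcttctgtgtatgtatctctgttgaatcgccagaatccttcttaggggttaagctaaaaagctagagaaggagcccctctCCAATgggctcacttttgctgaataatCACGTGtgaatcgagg
The upstream window held 4 GC boxes, of which 3 lay 95, 51 and 40 bases before the start, and had 73.3% G and C. The downstream window held 1 CCAAT box and 1 E-box, both after the start, and had 44% G and C, against a median of 52.7% over all windows. CCAAT box matches occur in 37.41% and E-box matches in 7.15% of windows. Neither E2F form searched, TTTCCCGC or the second form TTTGGCGC, matched a window of Cdkn1a or Cdkn2c, and 1.07% and 0.51% of all windows hold them. Promoter entries matched 6 of the 7 members, the exception being Cdkn1c.

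**Figure D3:**
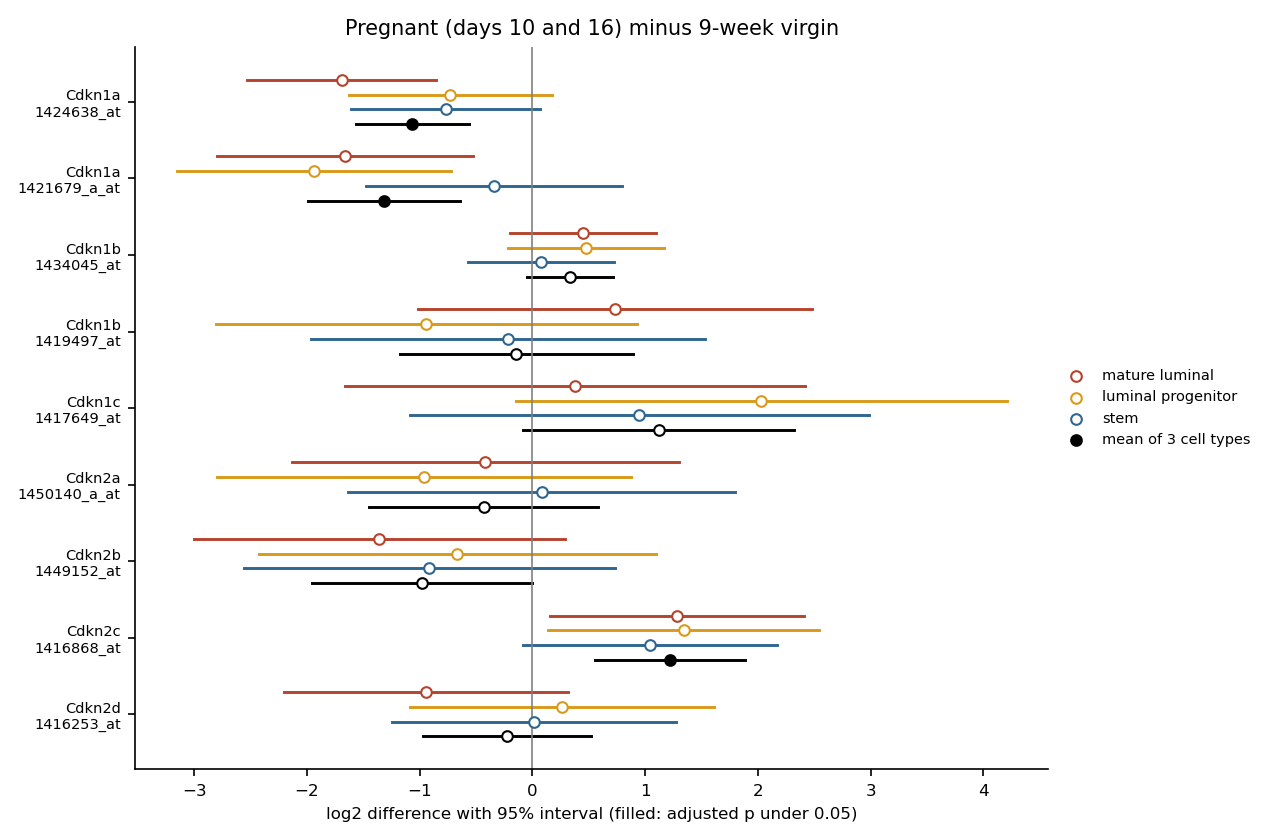
Log2 differences of pregnant (days 10 and 16) minus 9-week virgin glands for the 9 probe sets, in mature luminal cells (red), luminal progenitors (yellow), stem cells (blue) and averaged over them (black), with 95% intervals from limma. Filled points passed at an adjusted p under 0.05. Both Cdkn1a probe sets lie below 0 and Cdkn2c above 0 in all 3 cell types, and only their averages are filled.

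Cdkn1b, whose protein p27 holds cells in quiescence and is controlled largely by its degradation, did not pass any comparison on either probe set. The brighter one, 1434045_at, had a median of 11.58 in mature luminal cells, 11.55 in luminal progenitors and 11.62 in stem cells. In pregnancy it was 0.33 ± 0.18 higher on average, in 3 of 3 cell types (adjusted p = 0.305). The day-10 mature luminal arrays, at 12.32 and 11.99, were the 2 highest of the 23.

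The second Cdkn1b probe set, 1419497_at, varied more and did so with a sign of RNA quality. Its lowest values were 5.04 in 3-week mature luminal cells, 5.63 in luminal progenitors and 5.79 in stem cells of retired breeders, arrays whose Gapdh gaps were 5.16, 2.72 and 3.77. The gap between the 2 Cdkn1b probe sets ran from 2.89 to 6.6 and rose with the Gapdh gap, with Pearson r = 0.799 and Spearman rho = 0.627 over 23 arrays, and r = 0.657 over the 21 arrays without the 2 highest. These arrays share the mice, stages and preparations, and the correlation is given as a description. For the pair of Cdkn1a probe sets r was 0.369 and rho 0.456. In retired breeders 1419497_at differed by -1.52 ± 0.60 from 9-week virgins (unadjusted p = 0.0273, adjusted p = 0.637), while 1434045_at differed by 0.38 ± 0.22. The part of RNA quality in that difference was not tested.

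**Figure D4:**
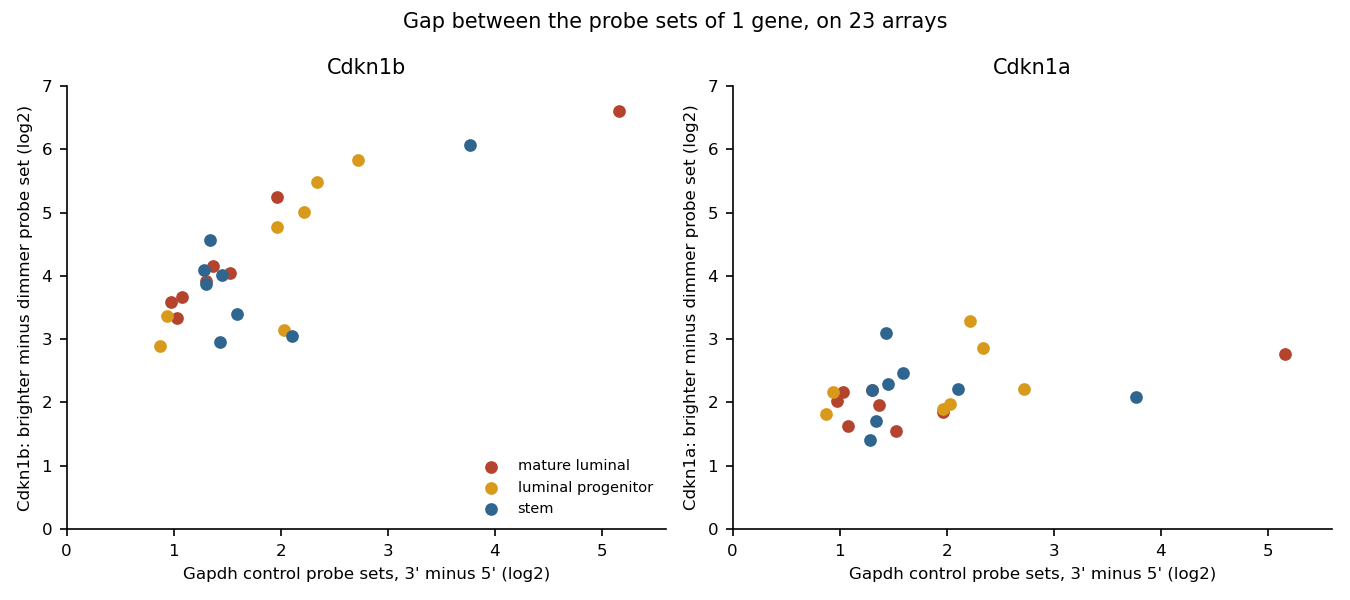
Gap between the brighter and the dimmer probe set of Cdkn1b (left) and Cdkn1a (right) against the gap between the 3′ and 5′ Gapdh control probe sets, both in log2 units, on 23 arrays coloured by cell type. The Cdkn1b gap reaches 6.6 at the highest Gapdh gap of 5.16, and the Cdkn1a gap stays between 1.41 and 3.28.

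Cdkn1c, the imprinted inhibitor p57, which is expressed from the maternal copy, passed no comparison in the fit over all 23 arrays without a replicate block. In mature luminal cells it had 8.23 in 3-week virgins, 4.6 and 5.52 in 9-week virgins, 4.59 and 5.7 at day 10, 5.73 at day 16, 5.29 at day 19 and 6.15 in retired breeders. Luminal progenitors had 4.66 and 5.66 in 3-week virgins, 4.13 and 5.47 in 9-week virgins, 6.6 at day 10, 7.06 at day 16 and 6.51 in retired breeders. Stem cells had 6.06 and 8.46 in 3-week virgins, 6.26 and 6.93 in 9-week virgins, 4.85 and 7.38 at day 10, 8.97 at day 16 and 8.09 in retired breeders. In all 7 groups of 2 the array titled replicate 1 had the lower value, by 0.67 to 2.53. How many of all probe sets had the same sign in all 7 groups was not counted. None of the 15 steps between neighbours in the order of group means exceeded the spread between arrays of a group (SD 0.998), a spread that includes this gap between replicate numbers.

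Mature luminal cells differed from stem cells in Cdkn1c by -1.34 ± 0.55 (adjusted p = 0.217), lower at 4 of 5 stages, the exception being the 3-week array with the Gapdh gap of 5.16. Luminal progenitors differed by -1.38 ± 0.55 (adjusted p = 0.242), lower at 4 of 5 stages with day 10 as the exception. With the replicate 1 block both passed, at -1.49 (adjusted p = 0.00842) and -1.52 (adjusted p = 0.0106). Over the 15 numbered arrays the luminal progenitor difference was -1.95 (adjusted p = 0.0125). That fit compares these cell types in 3- and 9-week virgins only, without day 10. Within all other arrays the mature luminal difference was -1.70 (adjusted p = 0.0395). The pregnancy difference of 1.12 ± 0.55 was positive in 3 of 3 cell types and did not pass (adjusted p = 0.273), nor did the difference of 1.43 ± 0.71 between retired breeders and 9-week virgins (adjusted p = 0.671).

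The remaining Ink4 genes gave no call. Cdkn2b, which encodes p15 and is induced by TGF-beta, was higher in mature luminal cells than in stem cells at 5 of 5 stages. Its medians were 6.15 in mature luminal cells, 5.7 in luminal progenitors and 4.13 in stem cells, and the difference of mature luminal from stem cells was 1.26 ± 0.44 (adjusted p = 0.146). It passed with the replicate 1 block (1.32, adjusted p = 0.042) and within all other arrays (1.498, adjusted p = 0.043). In pregnancy it differed by -0.98 ± 0.45 (adjusted p = 0.236), with negative values in 3 of 3 cell types. Of the 8 stem cell arrays, 6 lay between 3.81 and 4.59 and the other two, both titled replicate 1, were at 5.67 and 6.5.

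Cdkn2d, which encodes the Ink4 inhibitor p19, was lower in mature luminal cells and luminal progenitors than in stem cells at 5 of 5 stages. The differences were -0.69 ± 0.34 (limma adjusted p = 0.317) and -0.72 ± 0.34 (adjusted p = 0.334), which did not pass. Cdkn2a encodes both p16Ink4a and p19Arf, an activator of p53, and its single probe set cannot be read here as one or the other. Its medians were 3.79 in mature luminal cells, 3.77 in luminal progenitors and 3.69 in stem cells, and its pregnancy difference was -0.43 ± 0.47 (adjusted p = 0.644). Cdkn2a and Cdkn2b are adjacent on chromosome 4 in RefSeq, and their group means had a Pearson r of 0.119 over the 16 groups. That r rests on low values, since Cdkn2a lay below the array median on 21 of 23 arrays and Cdkn2b on 8.

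Age and parity moved no member past the threshold. Setting 9-week against 3-week virgins, 0.00283% of probe sets passed, and the median of all probe sets was shifted by -0.14. Cdkn1c differed by -1.40 ± 0.62 (unadjusted p = 0.0445, adjusted p = 0.482), and the others by -0.36 to 0.37. Setting retired breeders against 9-week virgins, 0.00283% of probe sets passed, and Cdkn2c differed by 0.67 ± 0.39 with positive values in 3 of 3 cell types (adjusted p = 0.689). Between mature luminal cells and luminal progenitors, where 0.051% of probe sets passed, the members differed by -0.40 to 0.35.

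The partners and regulators of the inhibitors were read from lists of related genes. In pregnancy, 1 of 11 cyclins and CDKs was higher and none lower, with a list median of 0.92 against -0.03 over all probe sets. That gene was Ccna2, cyclin A2 of S phase, at 1.91 ± 0.34 (adjusted p = 0.0108). Of 11 RB and E2F genes 1 was higher, E2f1, an activator of S-phase genes, at 1.78 ± 0.41 (adjusted p = 0.0343). Of 14 proliferation genes 4 were higher, with a list median of 1.25, namely Mcm5 of the replicative helicase (2.03 ± 0.41), Mki67, which encodes the Ki-67 antigen (2.08 ± 0.47), and the mitotic kinases Aurkb (2.24 ± 0.52) and Plk1 (1.76 ± 0.45). Plk1 depended on low values, since it was 0.30 (adjusted p = 0.409) with values under the array median raised to it.

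Among all probe sets 1.85% were higher and 2.05% lower in this comparison. Of 10 genes for degradation of the inhibitors 2 were higher, Cks1b, the cofactor with which the Skp2 ligase recognises p27, at 0.90 ± 0.16 (adjusted p = 0.0108), and Ubac1, a subunit of the KPC ligase that ubiquitinates p27, at 1.65 ± 0.41 (adjusted p = 0.0451). The 15 genes tested from the list of p53 and its targets did not include Trp53, the gene of p53 itself. Of them 2 were lower, as was Cdkn1a. They were Trp53inp1, which promotes p53 activity, at -1.74 ± 0.19 (adjusted p = 0.000541) and the RNA-binding Zmat3 at -1.65 ± 0.42 (adjusted p = 0.05). Zmat3 did not pass with quantile normalization (adjusted p = 0.0598). The list median was -0.19. Of 15 FoxO, SMAD and MYC regulators, 11 Polycomb and locus regulators and 10 immediate early genes, none passed. Of 8 imprinted neighbours of Cdkn1c, 1 was higher, the growth factor gene Igf2, at 2.67 ± 0.51 (adjusted p = 0.0155), and it was 1.48 (adjusted p = 0.068) with low values raised. Fitted on the compared groups alone, E2f1, Mki67, Aurkb, Plk1, Ubac1 and Zmat3 did not pass, with adjusted p of 0.0697 to 0.0959. Tested in mature luminal cells alone, Cks1b (1.37 ± 0.27, adjusted p = 0.0357), Trp53inp1 (-2.33 ± 0.31, adjusted p = 0.00499) and Igf2 (4.15 ± 0.86, adjusted p = 0.0449) passed, and no other list gene did. Fitted on the compared groups alone these did not pass, at adjusted p of 0.144, 0.0542 and 0.0676 in the same order. Igf2 did not pass there with quantile normalization (adjusted p = 0.058) or with low values raised (adjusted p = 0.0524) either.

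With the replicate 1 block every call named for these lists in pregnancy was kept. How many of all probe sets passed under that block is not given here. Over the 15 numbered arrays, where the comparison is of day 10 in mature luminal and stem cells, Ubac1 was 0.87 (adjusted p = 0.167), Aurkb 2.16 (adjusted p = 0.0836), Plk1 1.35 (adjusted p = 0.205) and Zmat3 -1.24 (adjusted p = 0.0923), and these did not pass. Day 10 is also the only pregnant stage compared within the arrays titled replicate 1, while all other arrays include day 16. Within the arrays titled replicate 1 Ubac1 was 0.75 (adjusted p = 0.543), and within all other arrays 1.44 (adjusted p = 0.0313). Trp53inp1 passed in each of these fits, at -1.43 over the numbered arrays, -1.63 within replicate 1 and -1.50 within all other arrays.

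Markers of cell types moved in the same comparison. The mean of the 8 mature luminal markers ran from 9.35 to 10.97 on pregnant arrays and from 10.48 to 12.32 on 9-week arrays. Of these markers 4 were lower, Foxa1 (-2.62), Esr1 (-2.37), Cited1 (-3.77) and Pgr (-3.68), the last being the progesterone receptor. Elf5, a regulator of alveolar development and 1 of 6 luminal progenitor markers, was 3.39 higher. Over the numbered arrays Cited1 was -1.97 (adjusted p = 0.118). Of 12 basal markers 3 were higher, Acta2 (1.76), Tagln (1.86) and Cnn1 (2.77), and none of them passed over the numbered arrays, at 0.96, 1.30 and 1.34 with adjusted p of 0.291, 0.190 and 0.222. The basal mean ran from 8.44 to 12.46 on pregnant arrays and from 7.56 to 12.28 on 9-week arrays. The mean of 2 erythroid markers ran from 1.52 to 7.96 on pregnant arrays and from 2.62 to 4.8 on 9-week arrays, with Hbb-b2 4.28 higher. Over the numbered arrays Hbb-b2 was 1.33 (adjusted p = 0.585), within replicate 1 it was -0.65 (adjusted p = 0.907) and within all other arrays 5.06 (adjusted p = 0.00655). Of these fits, only that within all other arrays includes day 16. Within single cell types, markers of other cells separated the groups although none of those genes passed there. The endothelial mean was 5.82, 6.33 and 6.97 in pregnant stem cells, against 9.74 and 9.53 in 9-week stem cells, with a median difference of -3.45 over 8 genes. The fibroblast mean was 10.71 and 11.28 in pregnant luminal progenitors, against 7.84 and 7.86 in 9-week ones, with a median difference of 3.165 over 7 genes. The leukocyte mean was 7.94 and 7.3 in pregnant luminal progenitors, against 3.88 and 5.66 in 9-week ones, with a median difference of 3.43 over the 6 genes tested. The erythroid mean was 7.96 and 5.03 in pregnant luminal progenitors, against 2.95 and 3.14 in 9-week ones. The Gapdh gap was 1.03 to 2.34 on pregnant and 0.87 to 1.97 on 9-week arrays. The part of these changes in the Cdkn1a and Cdkn2c differences was not tested.

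**Figure D5:**
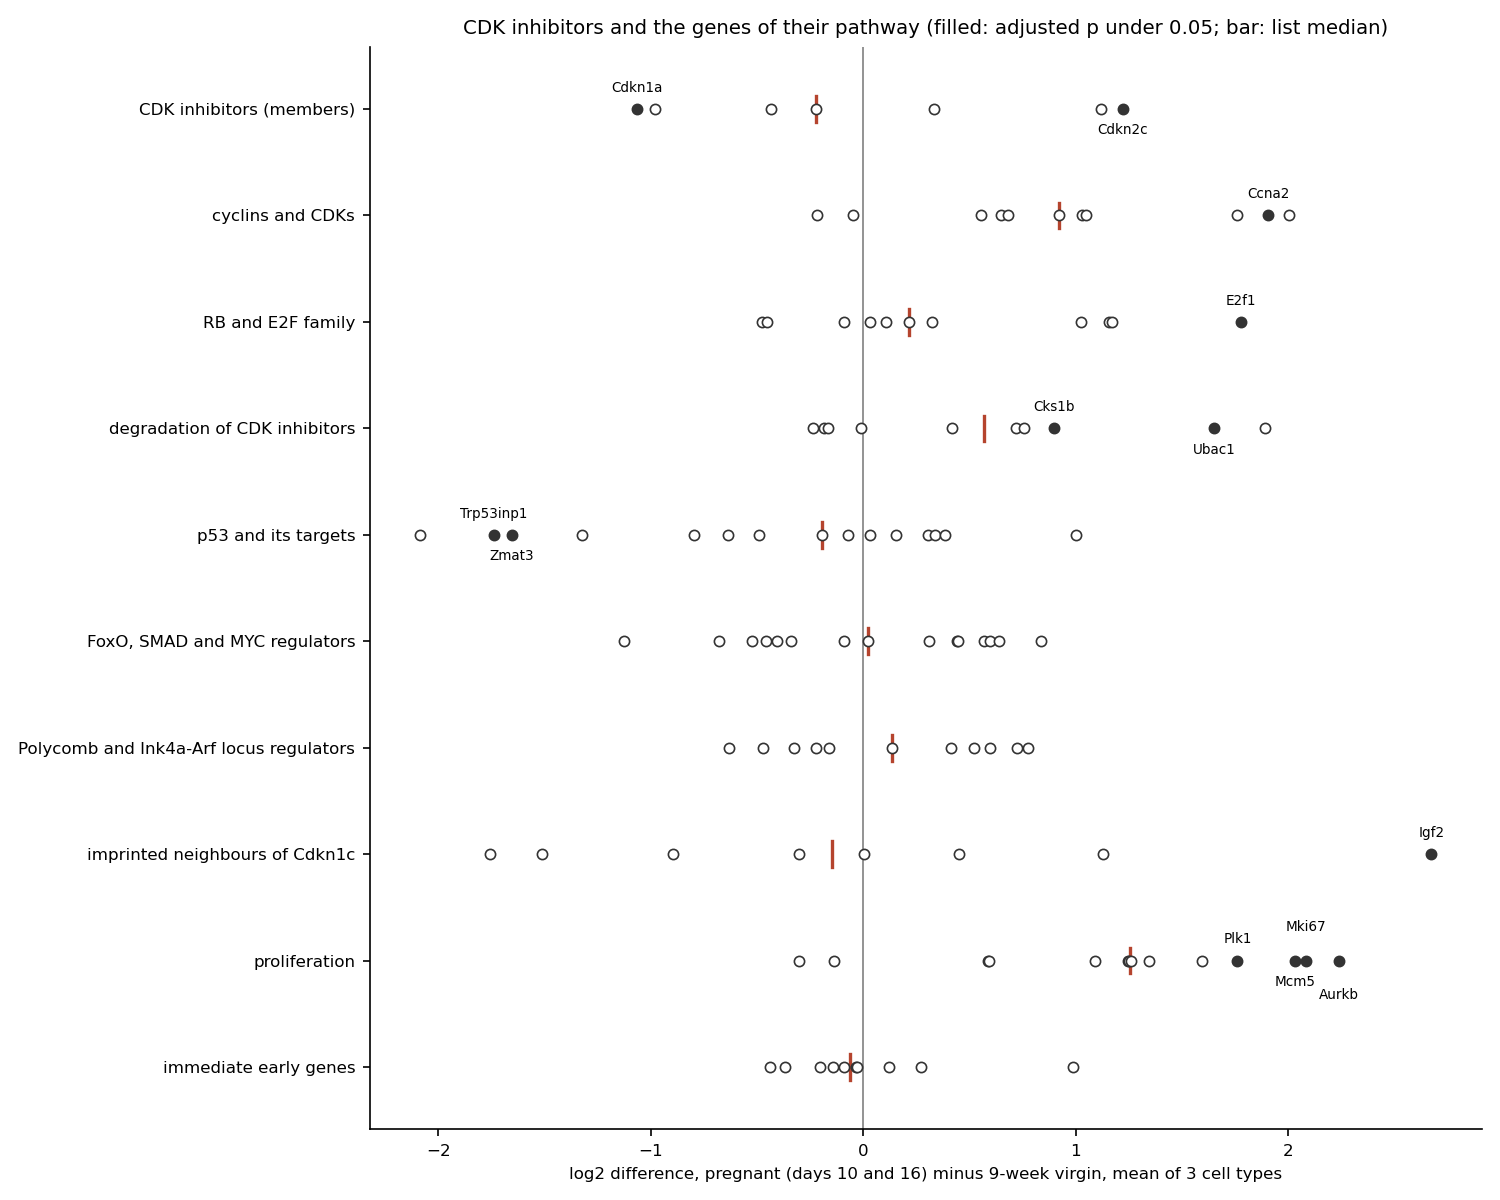
Log2 differences of pregnant (days 10 and 16) minus 9-week virgin glands, averaged over 3 cell types, for the members and 9 lists of related genes. Each point is 1 gene by its brightest probe set, filled where the adjusted p was under 0.05, and the red bar is the list median. The proliferation list has a median of 1.25, the cyclins and CDKs 0.92, and the p53 list -0.19.

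Between the cell types, 1 of 11 cyclins and CDKs was lower in luminal than in stem cells. It was Ccnd2, cyclin D2, at -3.21 ± 0.69 in mature luminal cells (adjusted p = 0.0197) and -3.06 ± 0.69 in luminal progenitors (adjusted p = 0.0449). Of the 15 genes tested from the p53 list, Phlda3, which restrains AKT, was lower in both, at -2.97 ± 0.39 in mature luminal cells (adjusted p = 0.00131) and -2.72 ± 0.39 in luminal progenitors (adjusted p = 0.0109). Trp53inp1 was higher in luminal progenitors than in stem cells, at 0.87 ± 0.18 (adjusted p = 0.0341). Of the 8 imprinted neighbours of Cdkn1c, Slc22a18, an organic cation transporter gene next to it on chromosome 7, was higher in mature luminal than in stem cells (1.67 ± 0.43, adjusted p = 0.0455). Igf2, set against stem cells, was lower in the luminal progenitors (-2.35 ± 0.51, adjusted p = 0.0364). Neither passed with quantile normalization, at adjusted p of 0.0522 for Slc22a18 and 0.0561 for Igf2. Fitted on the compared groups alone, Trp53inp1 (adjusted p = 0.0713) and Ccnd2 (adjusted p = 0.0501) did not pass in luminal progenitors. No other list gene except Cdkn1a passed in these comparisons.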

How the data were processed

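RNA of purified mammary epithelial cells was hybridised to Affymetrix arrays as biotinylated cRNA, per the labels' protocols. The authors deposited log2 values for 45101 probe sets and 23 arrays. That they are log2 was inferred from their range, 0 to 14.28. The software for summarising, background correction and scaling, and the surface markers used for purification, are not given in the sources used here. Without detection calls, a low value can include background. No 2 arrays held the same values, since at least 98.52% of probe sets differed. The number of arrays limits precision.

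Probe sets were named through the platform's annotation, in which 34945 list 1 symbol, 932 several and 9160 none, with 64 controls left out. Values were used as deposited. Testing was limited to the 35303 probe sets with 2 or more arrays above the array's 40th percentile. One linear model with a mean for each of 16 groups was fitted with limma 3.58.1 in R 4.3.3 (eBayes with an intensity trend, 7 residual degrees of freedom). Each of the 9 groups of 1 array took its spread from the 7 groups of 2. Tests were two-sided with Benjamini-Hochberg adjustment over all probe sets tested, at a threshold of 0.05. Contrasts weighted stages and cell types equally. The scripts were tested on simulated data.

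Titles carry replicate numbers. Deviations from the group mean of same-numbered arrays correlated in all 21 pairs of the 7 groups of 2, from 0.287 to 0.612, so the numbers were taken to pair arrays, from the data alone. The 8 unnumbered arrays were grouped with those titled replicate 2 in the block over all arrays. Fits within each side used additive stage and cell type terms. The side titled replicate 1 holds no array of day 16 or of retired breeders, and no luminal progenitor array of pregnancy.

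The members and lists were chosen with earlier results of these data known. All member probe sets are named. List genes are named where their brightest probe set passed, up to 6 a list and comparison, and for each member the 3 genes with the most similar group means. Alternatives covered normalization, filters, floor, weights, trend, probe set choice, arrays kept and blocks. Promoter windows are from RefSeq (GRCm38.p6); the arrays' own files name no build.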

Additional observations from a re-analysis of the deposited data

How the results depend on the processing

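Of 3708 recomputed values for the 108 pairs of a member probe set and a comparison, 3472 kept both direction and side of the threshold, 52 lost and 17 gained the call, 167 changed sign without being called, and none reversed a call. Member probe sets called for luminal progenitors against stem cells numbered 0, against 2 with the replicate block over numbered arrays and 3 with replicate 1 against all others. For mature luminal against stem cells the count was 1, against 2 with the 60th percentile filter, 0 with the block over numbered arrays, 4 with replicate 1 against all others, 0 within replicate 1 and 4 within all other arrays. For pregnant against 9-week glands it was 3, against 1 without the intensity trend and 0 with only the groups compared, with the block over numbered arrays, within replicate 1 and within all other arrays. In mature luminal cells alone it was 0, against 1 with values under each array's median raised to it, with 1 probe set a gene, with array weights and with replicate 1 against all others. With replicate 1 against all others, 9.98% of all probe sets passed for luminal progenitors against stem cells, up from 2.2%. For mature luminal against stem cells 13.2% passed, up from 5.09%. Shares under the other alternatives are not given here, so those member counts cannot be weighed against them. Leaving out each replicate in turn gave 0 to 2 for mature luminal against stem cells, 0 to 3 for pregnancy and 0 for the other comparisons. The cause of these moves was not tested. Over numbered arrays, luminal progenitors were set against stem cells in 3- and 9-week virgins only. Mature luminal cells were set against stem cells there in 9-week virgins and at day 10 only. The replicate blocks changed no other member call. Over all probe sets, calls for pregnancy ranged from 513 to 1575 on leaving out 1 array, against 1376. Removing the 2 arrays with the highest Gapdh gap left 1 and 3 member calls. Comparisons within a cell type and interactions were not run within the replicate sides. The luminal progenitor pregnancy, day 16 against day 10 and retired breeder comparisons could not be fitted over numbered arrays, and the last 2 not within replicate 1. Low signal limits Cdkn2a, below the array median on 21 of 23 arrays.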

Other observations

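For each member the 3 genes with the highest Pearson correlation of the 16 group means are named, among 15377 compared with 1 probe set a gene. Such a ranking yields 3 genes for any member, so their r values are no test of a relation. For Cdkn1a these were Ets1, a transcription factor gene (r = 0.970), Nin (0.957) and Coq8a (0.954). For Cdkn1b they were Poc1b (0.821), 5730507C01Rik (0.817) and the heat shock gene Hspb1 (0.808). Cdkn1c was followed by Smarca2, a chromatin remodelling ATPase gene (0.952), Rab27a (0.936) and Ankrd29 (0.929). The closest to Cdkn2a were Pax6 (0.828), Lrrc46 (0.793) and Bdkrb1 (0.780), and to Cdkn2b they were Anxa1 (0.871), Tbc1d23 (0.863) and Dsc2 (0.863). Cdkn2c was followed by Hrct1 (0.831), St3gal3 (0.831) and Zfp189 (0.829), and Cdkn2d by Nfil3 (0.846), Cav1 (0.840) and Fbxo25 (0.832). The groups share libraries, replicate numbers and preparations, so these are descriptions of likeness over 16 points. For Cdkn2a they rest on low values, below the array median on 21 of 23 arrays.

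Between the members themselves the correlations of group means ran from -0.548, between Cdkn1b and Cdkn2a, to 0.545, between Cdkn1a and Cdkn2d. Cdkn1a and Cdkn2c had -0.487. The day-19 mature luminal array, which enters no comparison, had 9.91 for Cdkn1a 1424638_at, 7.88 for 1421679_a_at, 11.05 for Cdkn1b 1434045_at, 5.29 for Cdkn1c, 4.43 for Cdkn2a, 6.1 for Cdkn2b, 6.8 for Cdkn2c and 7.79 for Cdkn2d.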
